A study of Mus musculus with 6 samples.

Results

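*Fezf2*, *Lhx2*, *Dbx2* and *Pou3f3* are 4 of the 32285 genes in the deposited count table, and they were taken by name. They are transcription factor genes that the study names in connection with astrocyte maturation. *Fezf2*, *Lhx2* and *Dbx2* are among the candidate regulators it followed, and *Pou3f3* is among the homeobox genes it lists by their expression at the 2 ages. They were picked partly on their expression in these same libraries, so the p-values below are not independent evidence of a direction with age. The data were single-cell RNA-seq of the striatum of male C57BL/6 mice, all wild type, in 3 libraries from pups on postnatal day 3 (P3) and 3 from adults aged 3 months (3m). Each library pooled several animals, the cells were enriched with an antibody to the astrocyte surface antigen ACSA2, and no treatment or transgene was used at either age. Of 16690 barcodes, 14373 were annotated cells in 24 clusters, and 9992 of these (1118 at 3m and 8874 at P3) were astroglial cells that the study divided again into 17 sub-clusters.

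The 4 genes encode nuclear proteins that bind DNA and are best known from forebrain and spinal cord development. *Fezf2* encodes a zinc finger repressor that specifies subcerebral projection neurons of the cortex. *Lhx2* encodes a LIM-homeodomain factor that patterns the telencephalon and the eye field, and it acts together with LIM-domain binding cofactors. *Dbx2* encodes a homeodomain protein of ventricular zone progenitors, and *Pou3f3* (also called *Brn1*) encodes a POU-homeodomain factor of upper-layer neurons and of the developing kidney. Astrocytes keep part of the transcription factor code of the region in which they arise, so such genes can mark both region and stage.

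All 4 lie in the mouse genome as single loci (GRCm38, the mm10 build of the files, with GENCODE M21 annotation). *Fezf2* is on the minus strand of chromosome 14 (12342094 to 12348189), *Lhx2* on the plus strand of chromosome 2 (38339281 to 38369733), *Dbx2* on the minus strand of chromosome 15 (95623563 to 95655960) and *Pou3f3* on the plus strand of chromosome 1 (42695768 to 42703176), where it has 1 exon. Cell Ranger counts reads on a gene's own strand, and the antisense genes inside *Lhx2* held few UMIs in astroglial cells (*Gm27197*, 3 at 3m and 21 at P3) or none (*Gm13584*). *AC122898.1*, annotated over *Pou3f3* on the same strand, has no row in the count table. *Pou3f3* has a divergent neighbour, the long noncoding RNA gene *Pantr1*, whose annotated start is 926 bases away on the opposite strand. The 250 bases before the *Pou3f3* start, chr1:42695518-42695767 on the plus strand (RefSeq, GRCm38.p6), face this neighbour, lie in no annotated exon, and are shown because the levels of this gene pair are set side by side below.

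Pou3f3 promoter: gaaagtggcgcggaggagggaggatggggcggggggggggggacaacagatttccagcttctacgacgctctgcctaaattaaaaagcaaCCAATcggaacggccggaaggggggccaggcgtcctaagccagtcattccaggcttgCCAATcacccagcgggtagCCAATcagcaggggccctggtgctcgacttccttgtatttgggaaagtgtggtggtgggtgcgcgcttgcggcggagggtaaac

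The capitals mark the letters CCAAT, searched on both strands and found 160, 103 and 84 bases before the start. At least 1 match of CCAAT is present in 33.8% of all RefSeq promoter windows of this length. A match is a description of the sequence and not a binding site.

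Depth differed between ages and some libraries stood apart. The 3m libraries held 5471573 to 10522151 UMIs and the P3 libraries 32193875 to 37795021, and the astroglial sums from 1157485 to 1843998 and from 22327104 to 30617140. A mitochondrial share of 10% or more was found in 836 of 1653 barcodes of 3m replicate 1, and 182 of its 213 astroglial cells formed sub-cluster 14, which held only 2 cells of other libraries. P3 replicate 1 gave 1156 of the 1211 cells of sub-cluster 1, and P3 replicate 3 gave 719 of 735 cells of sub-cluster 4 and 273 of 284 cells of sub-cluster 12, which were shallow. Libraries shared 37 barcode sequences, each between 2 libraries. The 6 astroglial markers were all detected in every library sum, with a summed level of 8244 to 9238 CPM (UMI counts scaled to a total of 1e+06) at 3m and 3926 to 4741 at P3. The intervals given with pooled levels are exact 95% Poisson intervals and cover counting error only.

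Outside the astroglia, the 4 genes parted. *Pou3f3* was detected in oligodendrocytes, whereas the others were below 10 CPM there. Levels below are CPM of the pooled cells of a cluster. In the main 3m oligodendrocyte cluster (ODC_2, 1228 cells) *Pou3f3* stood at 108 (95% interval 99.5 to 116), and it was 112 in 3m replicate 2 and 99.3 in 3m replicate 3, the libraries that supplied nearly all of these cells. In a further oligodendrocyte cluster (ODC_10, 503 cells) it stood at 83.3. Most ODC_10 cells (458) came from 3m replicate 1, the library with the high mitochondrial share, where it was 85.9. The oligodendrocyte clusters thus came mostly from different libraries. *Lhx2* was at 8.39 and 4.30 in these clusters, *Dbx2* at 9.22 and 2.74, and *Fezf2* had 4 UMIs in ODC_2 and 0 in ODC_10. The count ratio of *Pou3f3* to *Lhx2* was 12.8 in ODC_2 (exact conditional interval 9.64 to 17.4) and 19.4 in ODC_10 (12.6 to 31.2), against 1.17 in the main 3m astrocyte cluster (AST_3m_5, 1.06 to 1.28). After every cell was thinned to 2000 UMIs, 19.6% of ODC_2 cells and 17.1% of ODC_10 cells held a *Pou3f3* UMI (median depths before thinning of 4587 and 8829 UMIs), against 0.166% of the endothelial cluster END_7 (median 26510) and 0.667% of 3m END_17 cells (median 5934). Without thinning these shares were 37.6%, 51.7%, 2.98% and 2.45%. The shallow P3 endothelial clusters did not share this low level: 14.1% of END_13 cells (14 of 99, median 1362) and 28.3% of END_12 cells (15 of 53, median 1251) held a *Pou3f3* UMI after thinning, so the oligodendrocyte shares lay above those of END_7 and END_17 but not above those of every endothelial cluster.

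**Figure D1:**
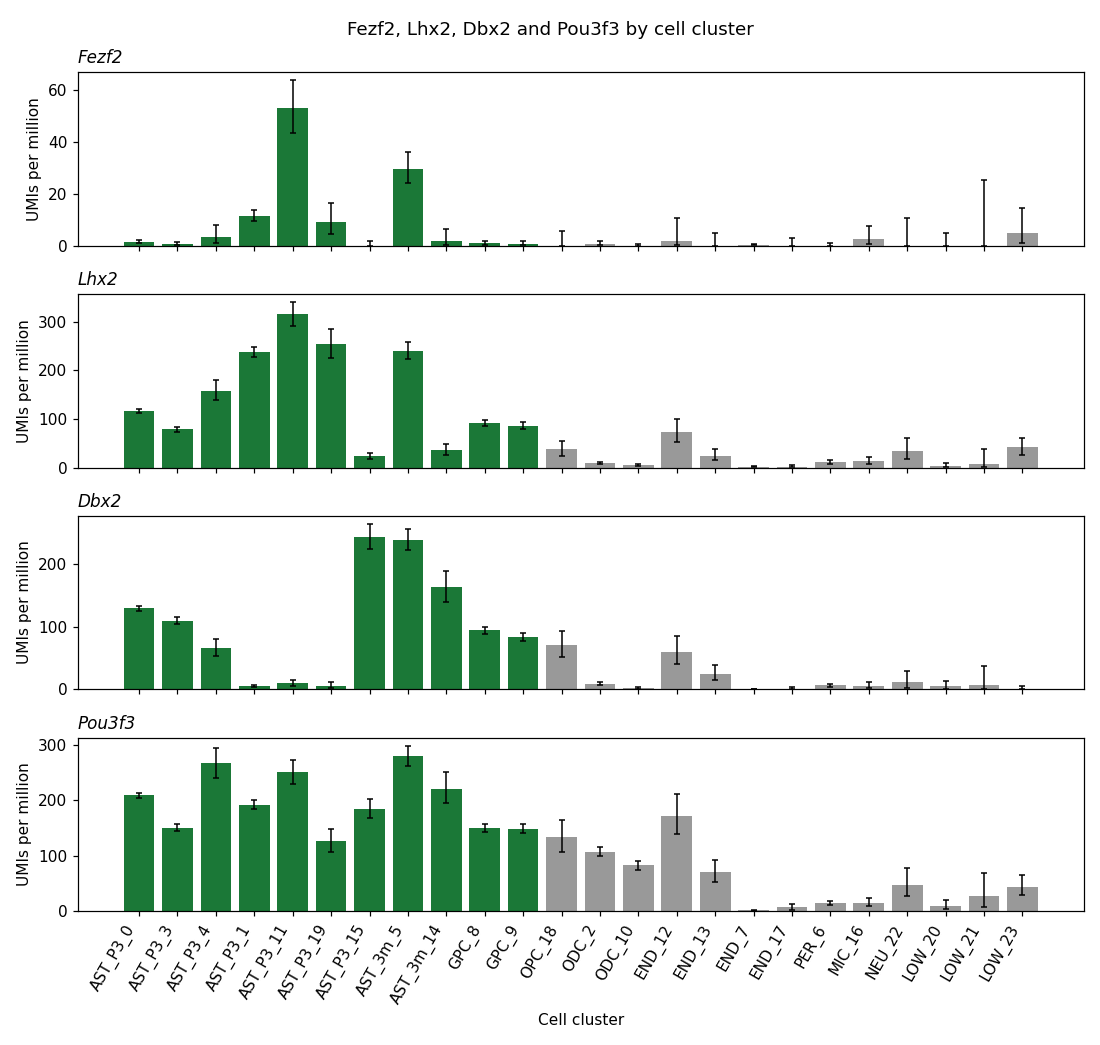
Level of *Fezf2*, *Lhx2*, *Dbx2* and *Pou3f3* (CPM, linear axes from 0) in the pooled cells of each of the 24 clusters, with exact 95% Poisson intervals; green bars are astroglial clusters (AST, GPC) and grey bars all others. *Pou3f3* stands at 108 in ODC_2 and 83.3 in ODC_10, where *Lhx2*, *Dbx2* and *Fezf2* are all below 10.

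Oligodendrocyte precursors (OPC_18, 107 cells) held *Pou3f3* at 134, *Dbx2* at 70.7 and *Lhx2* at 37.6, and no *Fezf2* UMI. A count of 0 in 665135 UMIs left room for up to 3 UMIs. In the 3 P3 libraries the precursor level of *Pou3f3* was 121, 131 and 149, while that of *Dbx2* was 88.1, 76.0 and 37.3, so the spread of *Dbx2* was wide. In the endothelial cluster END_7 all 4 genes were below 2, and in pericytes (PER_6) *Lhx2* stood at 11.0, *Dbx2* at 6.62, *Pou3f3* at 14.4 and *Fezf2* had no UMI. Microglia (MIC_16) held *Pou3f3* at 15.6. END_13 held *Pou3f3* at 70.9, *Lhx2* at 24.1 and *Dbx2* at 25.3. END_12 held *Pou3f3* at 173, *Lhx2* at 73.0 and *Dbx2* at 59.6, in shallow cells (median 1251 UMIs), and its *Pou3f3* to *Lhx2* ratio of 2.37 (1.60 to 3.56) overlapped that of the P3 astrocyte cluster AST_P3_3, 1.92 (1.78 to 2.07). Whether these UMIs belong to the cells of END_12 and END_13 was not tested.

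Within the astroglia, *Lhx2*, *Dbx2* and *Fezf2* separated 11 of the 13 P3 sub-clusters into 3 patterns, and *Pou3f3* did not. The remaining sub-clusters 4 and 12 (1018 shallow cells, nearly all of P3 replicate 3) followed none of them, with *Lhx2* at 176 and 140, *Dbx2* at 56.8 and 89.1 and *Fezf2* at 3.61 and 4.82. The first pattern was that of the dividing sub-clusters 6 and 8 and of sub-clusters 0, 1, 2 and 9, which the study places on its main lineage (0 and 2) or finds close to it (1 and 9). The level of *Lhx2* in sub-clusters 0, 1, 2 and 9 together was 101 in P3 replicate 1, 96.0 in replicate 2 and 121 in replicate 3, a mean of 106 ± 13.4 (SD, n = 3). *Dbx2* stood at 125 ± 7.53 and *Pou3f3* at 194 ± 29.1 in the same cells. *Fezf2* was nearly absent, at 1.24 ± 0.472, from 51 UMIs in 4383 cells. In sub-clusters 6 and 8, *Lhx2* stood at 91.6 ± 13.5, *Dbx2* at 87.3 ± 8.23 and *Pou3f3* at 151 ± 20.4.

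The second pattern was that of P3 sub-clusters 3, 5, 10 and 15, where *Lhx2* and *Fezf2* were high and *Dbx2* was below 10. *Lhx2* stood at 214, 235 and 275 in the 3 P3 libraries, all above the range of sub-clusters 0, 1, 2 and 9. *Dbx2* stood at 6.72 ± 0.824. Its highest library (7.66) lay far below the lowest of sub-clusters 0, 1, 2 and 9 (116) and the lowest of sub-clusters 6 and 8 (80.8). *Fezf2* stood at 31.5 in P3 replicate 1, 10.4 in replicate 2 and 23.3 in replicate 3, so its libraries differed widely, but each lay above the *Fezf2* level of the first pattern in its own library. These 1988 cells were 22.4% of P3 astroglial cells and held 235 of the 307 *Fezf2* UMIs of P3 astroglia (76.5%), and 82.3% of those of P3 replicate 3.

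Sub-cluster 10 (332 cells) had the highest pooled level of *Fezf2* and *Lhx2* of any sub-cluster, at either age, with 240 of its cells from P3 replicate 3. *Fezf2* stood there at 27.9, 65.7 and 72.2 in the 3 P3 libraries and *Lhx2* at 192, 266 and 360. In P3 replicate 1 the order differed, with sub-cluster 3 (33.9 and 231) and sub-cluster 5 (37.7 and 226) above sub-cluster 10 for both genes. *Pax6*, a homeodomain factor of radial glia, also stood at 366 there against 8.04 to 108 in the other sub-clusters, and *Emx1*, a marker of the dorsal telencephalon, at 32.0 against 7.05 or less. Sub-cluster 15 had *Foxj1*, a regulator of motile cilia, at 780 against 98.3 or less elsewhere, and held *Lhx2* at 236 and *Dbx2* at 3.20. The study places sub-clusters 3, 5, 10 and 15 with non-telencephalic reference cells, as possible astrocytes of adjacent regions. The *Emx1* level of sub-cluster 10 goes against that name.

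The third pattern was that of P3 sub-cluster 11 (307 cells), which was the reverse of the second. *Dbx2* stood at 214, 257 and 270 in the 3 P3 libraries, *Lhx2* at 20.6, 24.1 and 20.9, and *Fezf2* had 0 UMIs in 2343865, which leaves room for up to 1.28 CPM. Each library gave the same order, with little spread. *Agt*, which encodes angiotensinogen and is a known marker of astrocytes outside the telencephalon, stood at 917 in sub-cluster 11 against 0 to 60.3 in the other P3 sub-clusters. *Emx2*, a telencephalic homeobox gene, was at 14.9 there and at 41.0 to 125 in the others. The study groups sub-cluster 11 with the telencephalic astrocytes, and these *Agt* and *Emx2* levels go against that grouping.

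At 3m the astroglia showed 2 patterns. In sub-clusters 7 and 14 (788 cells) *Lhx2* stood at 246 ± 15.6, *Dbx2* at 240 ± 7.09, *Pou3f3* at 277 ± 26.6 and *Fezf2* at 29.7 ± 8.88 (SD, n = 3). All 4 genes were thus high in the same sub-clusters, a combination that no P3 sub-cluster had. In sub-cluster 13 (202 cells) *Dbx2* stood at 187, *Lhx2* at 31.2, *Pou3f3* at 237 and *Agt* at 1104, and *Fezf2* had 1 UMI, a profile close to that of P3 sub-cluster 11. Sub-cluster 16 (121 shallow cells) held *Lhx2* at 44.2 and *Dbx2* at 92.5, with wide intervals (22.1 to 79.1 and 58.6 to 139).

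**Figure D2:**
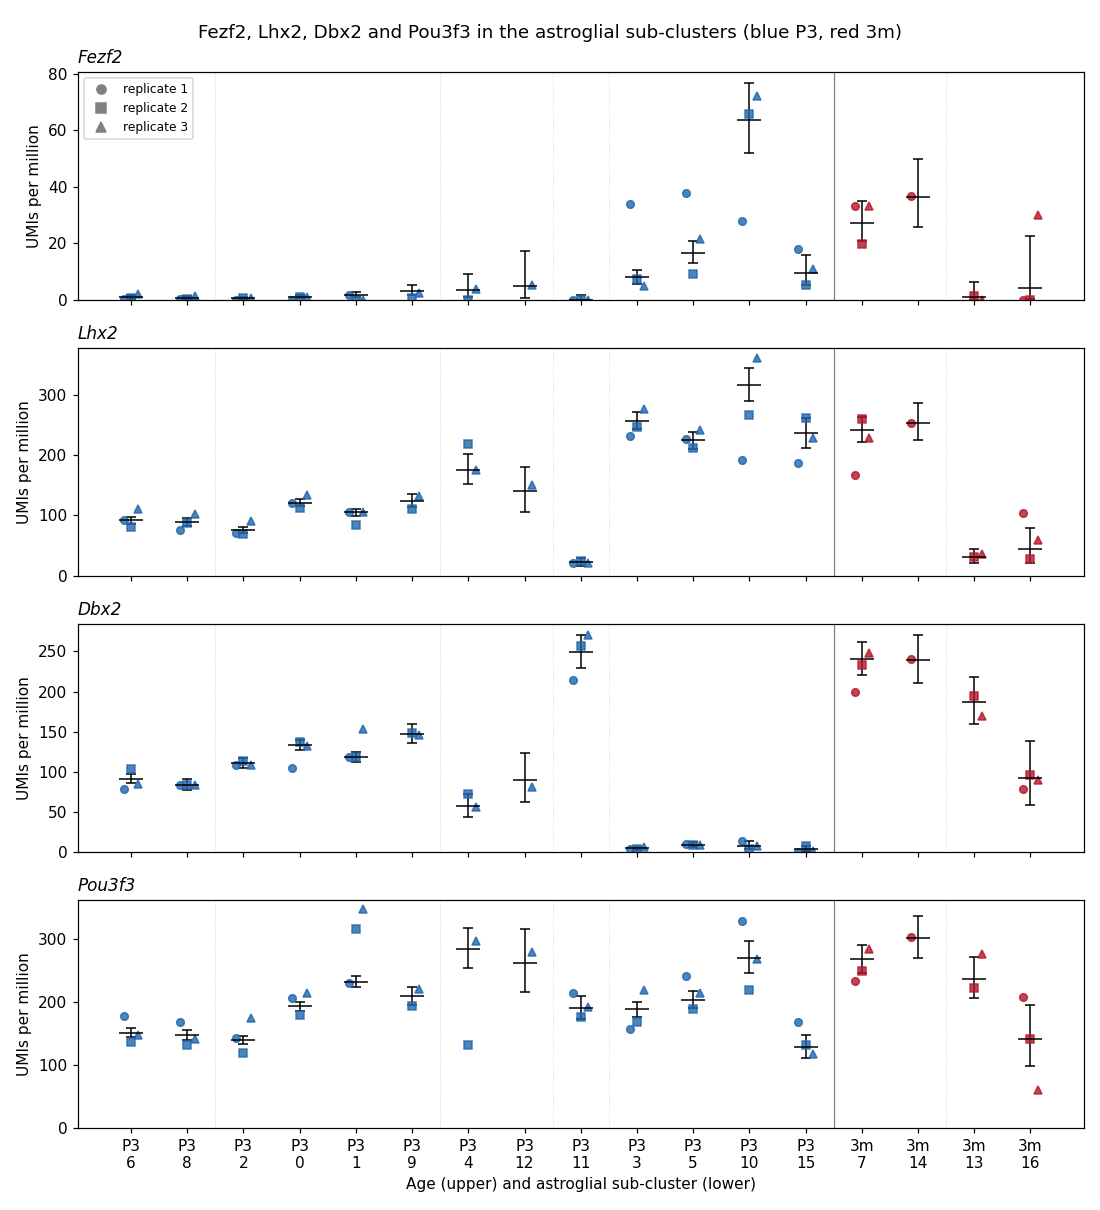
Level of *Fezf2*, *Lhx2*, *Dbx2* and *Pou3f3* (CPM, linear axes from 0) in 13 P3 and 4 3m astroglial sub-clusters; black marks and bars are pooled levels with exact 95% Poisson intervals and coloured symbols are single libraries with at least 10 cells. *Dbx2* is below 10 in the pooled P3 sub-clusters 3, 5, 10 and 15 while *Lhx2* is above 220 there, and sub-cluster 11 shows the reverse, with *Dbx2* at 250 and *Lhx2* at 22.2.

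In order of pooled *Lhx2*, sub-cluster 10 was followed by 3, 14, 7, 15 and 5, which lay between 224 and 257 with library ranges that overlapped between neighbours, then by the sparse sub-clusters 4 and 12, by 9, 0, 1, 6, 8 and 2 (75.6 to 124), and by 16, 13 and 11. *Dbx2* had the order 11, 7, 14 (250, 241 and 239, not separated by their intervals), 13, then 9, 0, 1 and 2, then 16, 6, 12, 8 and 4, with 5, 10, 3 and 15 last. *Pou3f3* ran only from 128 in sub-cluster 15 to 302 in sub-cluster 14, and in most neighbours of that order the library ranges overlapped. Its divergent neighbour *Pantr1* ran over a wider range, from 370 in sub-cluster 16 to 1753 in sub-cluster 3. In oligodendrocytes *Pantr1* stood at 171 (ODC_2) and 124 (ODC_10), and in cluster LOW_20 (90 cells, 8 *Pou3f3* UMIs) it stood at 491 while *Pou3f3* was at 10.3, so the levels of this pair did not move together in every cell type.

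The age comparison asked whether the 4 genes differed between 3m and P3 astroglia as a whole, with UMIs summed over the astroglial cells of each library. *Fezf2* and *Dbx2* rose, by 2.77 ± 0.42 and 1.36 ± 0.16 log2 units (standard error), whereas *Lhx2* and *Pou3f3* missed the fold threshold. *Dbx2* stood at 232, 203 and 233 in 3m replicates 1, 2 and 3 and at 104, 101 and 90.3 in the P3 replicates. The ages did not overlap, and the adjusted p was 1.93e-05 (edgeR quasi-likelihood test, Benjamini-Hochberg over all genes tested). *Fezf2* stood at 34.6, 10.8 and 28.5 at 3m and at 2.87, 2.58 and 6.67 at P3, also without overlap (adjusted p = 0.000132 in edgeR). Its 3m spread was wide, and the lowest library, 3m replicate 2, had 257 of its 546 astroglial cells in sub-clusters 13 and 16, where *Fezf2* was nearly absent. Within sub-clusters 7 and 14 alone, *Fezf2* stood at 36.5, 19.7 and 33.0 in 3m replicates 1, 2 and 3. The cause of the spread was not tested.

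*Lhx2* stood at 240, 155 and 200 at 3m and at 100, 118 and 154 at P3, so that the lowest 3m library and the highest P3 library nearly met. Its fitted change was 0.86 ± 0.20 (adjusted p = 0.00306 in edgeR), below the fold threshold of 1 log2 unit. For *Pou3f3* the values were 299, 227 and 276 at 3m and 205, 157 and 198 at P3, a change of 0.71 ± 0.17 (adjusted p = 0.00387 in edgeR), also below the threshold. A gene counted as called with an adjusted p of at most 0.05 and a change of at least 1 log2 unit. By this rule 2 of the 4 genes were called higher, against 15.8% of the 13530 genes tested (4344 genes or 32.1% in either direction), so a call was common in this comparison.

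**Figure D3:**
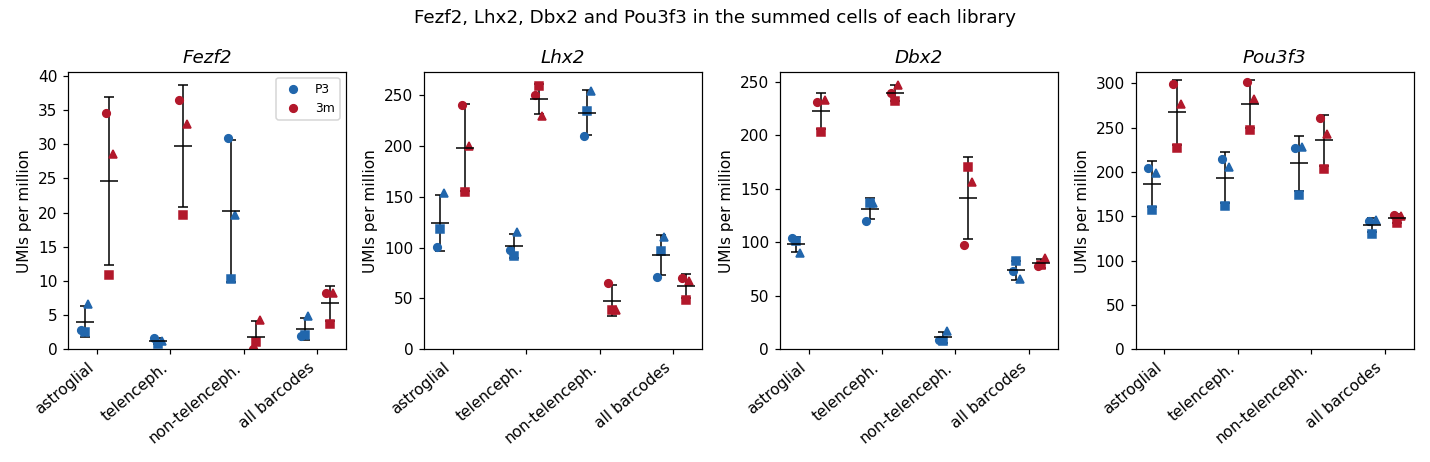
Level of *Fezf2*, *Lhx2*, *Dbx2* and *Pou3f3* (CPM, linear axes from 0) in the summed cells of each library, as astroglial cells, telencephalic sub-clusters, non-telencephalic sub-clusters and all barcodes; circles, squares and triangles are replicates 1, 2 and 3, with mean and SD in black. *Lhx2* is higher at 3m in the telencephalic sums (246 against 102) and lower at 3m in the non-telencephalic sums (47.7 against 233).

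The size of these changes depended on which P3 cells entered the sums. P3 sub-clusters 3, 5, 10 and 15 were left out after seeing the data, for their levels of these same genes. *Fezf2* then rose by 4.54 ± 0.40, *Lhx2* by 1.14 ± 0.18 and *Dbx2* by 1.08 ± 0.17, and *Lhx2* passed the threshold (adjusted p = 9.78e-05 in edgeR). The direction of these 3 shifts was built into the choice, so the new call and its p are no evidence. The cut also took out 235 of the 307 *Fezf2* UMIs of P3 astroglia, so the size for *Fezf2* is no measure of precision. *Pou3f3* stayed at 0.70 ± 0.17. Leaving out P3 replicate 3 also brought *Lhx2* over the threshold, at 1.04. The second pattern held 42.1% of *Lhx2* UMIs in that library and 39.3% in P3 replicate 2, and the cause was not tested. Dividing cells were another difference between the ages: all 3 cycling markers were detected in every P3 astroglial sum (350 to 455 CPM together), whereas at 3m their sum was 0 to 0.542 and *Mki67* and *Cdk1* were at 0. Without the dividing sub-clusters 6 and 8 no call among the 4 genes changed. The oligodendrocyte markers moved with age as well: all 6 were detected in every 3m astroglial sum (222 to 571 together) against 4.34 to 5.20 at P3, where *Mog* and *Opalin* were at 0. Without cells that held at least 2 of *Mog*, *Mobp*, *Mag* and *Cldn11* no call among the 4 genes changed either.

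The study compared ages along its main lineage, which includes the dividing sub-clusters 6 and 8. The sums were repeated on another set, without 6 and 8 (0, 1, 2, 9 and 11 at P3, 7 and 14 at 3m). The study places these on that lineage or with telencephalic astrocytes, and they are called telencephalic here. Here *Fezf2*, *Lhx2* and *Dbx2* rose, 3 of the 4 genes, against 15.4% of the 12335 genes tested (29.6% in either direction). *Fezf2* stood at 36.5, 19.6 and 33.0 at 3m and at 1.64, 0.718 and 1.18 at P3, a change of 4.87 ± 0.32 (adjusted p = 2.11e-11 in edgeR), and it was the largest change of the 4. The P3 sums held 51 *Fezf2* UMIs, and the gene passed the low-count filter through its 3m level. The size and p of its change are therefore no measure of precision. *Lhx2* stood at 250, 259 and 229 at 3m and at 97.7, 91.7 and 115 at P3, a change of 1.48 ± 0.17 (adjusted p = 1.60e-07 in edgeR). The libraries of each age were close together for *Lhx2*, and the gap between ages exceeded their spread. *Dbx2* stood at 239, 232 and 247 at 3m and at 120, 137 and 137 at P3. Its change of 1.06 ± 0.17 (adjusted p = 1.82e-05 in edgeR) lay just over the fold threshold and fell under it, at 0.98 and 0.99, without 3m replicate 3 or P3 replicate 1. *Pou3f3* was also higher in every 3m library (301, 248 and 283, against 215, 161 and 205), by 0.72 ± 0.17, short of the fold threshold (adjusted p = 0.00125 in edgeR). Without sub-cluster 11, left out after seeing the data, the changes were 4.79, 1.42, 1.14 and 0.72 for *Fezf2*, *Lhx2*, *Dbx2* and *Pou3f3*, with the same calls.

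In the sub-clusters that the study names non-telencephalic (3, 4, 5, 10, 12 and 15 at P3, 13 and 16 at 3m, with any stray cells of the other age) the directions of *Fezf2* and *Lhx2* were opposite. *Lhx2* stood at 65.1, 38.9 and 39.1 at 3m and at 210, 234 and 254 at P3, a fall by 2.14 on the log2 scale (standard error 0.29, adjusted p = 5.03e-07 in edgeR). For *Fezf2* the 3m sums held 2 UMIs and the P3 sums 241, which put the P3 level 9.66 times as high (exact conditional interval 2.65 to 80.2), and its fitted fall of 2.97 (adjusted p = 0.00670 in edgeR) was no longer called without 3m replicate 2 (-2.14, adjusted p = 0.268 in edgeR). *Dbx2* stood at 97.7, 170 and 156 at 3m and at 8.36, 7.81 and 17.4 at P3, a rise of 4.05 ± 0.29 (adjusted p = 7.75e-13 in edgeR). In these sums *Fezf2* passed the low-count filter through its P3 level and *Dbx2* through its 3m level. The sizes and p of their changes are therefore no measure of precision. *Pou3f3* changed by 0.45 ± 0.24 and was not called (adjusted p = 0.145 in edgeR). The background in this comparison was 29.5% of 8822 genes called in either direction. The 3m sums were thin, with 328 cells in all and 61425 UMIs in 3m replicate 1, and 8 of the 47 *Lhx2* UMIs at 3m came from 4 cells of sub-cluster 5.

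These sums set P3 cells mostly of the second pattern against 3m cells of a pattern like that of sub-cluster 11, and sub-clusters 4 and 12 made up 1018 of the 3006 P3 cells (992 of them in replicate 3, the P3 library with the highest *Dbx2*), so age and sub-cluster cannot be told apart in them. When P3 sub-cluster 11 was set against 3m sub-clusters 13 and 16, a comparison chosen after seeing the data, none of the 3 genes that could be tested was called. Sub-cluster 11 was taken because its levels of these genes were close to those of sub-cluster 13. The lack of a call was thus largely fixed in advance and is no evidence. *Dbx2* stood at 214, 257 and 270 at P3 and at 97.7, 174 and 157 at 3m. The fitted change was a fall by 0.46 on the log2 scale (standard error 0.25, adjusted p = 0.197 in edgeR), although the libraries did not overlap. *Lhx2* differed by 0.88 ± 0.37 (adjusted p = 0.0863 in edgeR), and its count ratio of 1.53 had an interval of 0.986 to 2.37. *Pou3f3* differed by 0.44 ± 0.24 (adjusted p = 0.194 in edgeR).

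**Figure D4:**
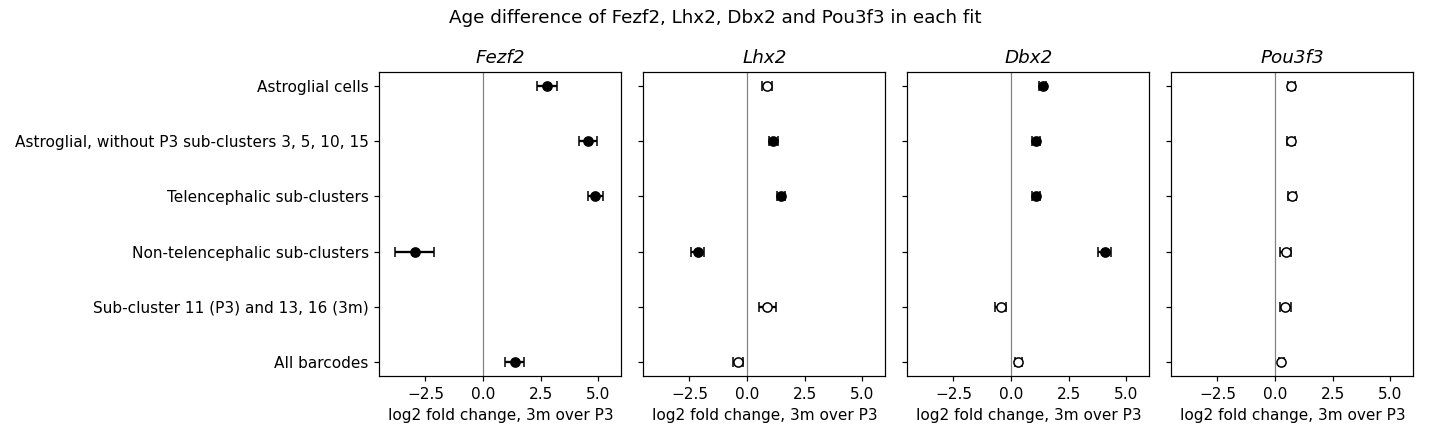
Log2 fold change of 3m over P3 with its standard error for *Fezf2*, *Lhx2*, *Dbx2* and *Pou3f3* in 6 edgeR fits, filled where the gene was called and open where it was not; *Fezf2* could not be fitted for sub-cluster 11 against 13 and 16. *Lhx2* lies at 1.48 in the telencephalic and at -2.14 in the non-telencephalic fit, while *Pou3f3* lies between 0.27 and 0.72 in all 6.

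The difference between the territories was itself tested, as an interaction of age and territory with library as a block. The age change in telencephalic minus that in non-telencephalic sub-clusters was 7.73 ± 0.62 for *Fezf2*, 3.78 ± 0.22 for *Lhx2* and -2.93 ± 0.27 for *Dbx2*, with adjusted p of 1.85e-10, 5.46e-13 and 2.55e-09 (edgeR). The value of *Fezf2* rests on 2 UMIs in the 3m non-telencephalic sums, and the gene passed the low-count filter there through its P3 level, so its size and p are no measure of precision. The same holds for *Dbx2*, which passed the filter in those sums through its 3m level. The value of *Lhx2* rests on 47 UMIs in the 3m non-telencephalic sums, 8 of them from 4 cells of sub-cluster 5. For *Pou3f3* it was 0.34 ± 0.16 (adjusted p = 0.143 in edgeR). Of 10181 genes tested, 22.3% passed an adjusted p of 0.05. With sub-cluster 11 moved to the non-telencephalic side in place of the other P3 sub-clusters, again after seeing the data, *Dbx2* turned to 1.56 ± 0.18, *Lhx2* was 0.63 ± 0.33 and *Fezf2* -1.51 ± 2.70, of which only *Dbx2* passed (adjusted p = 3.76e-08 in edgeR). This move was also made on the levels of these genes, so its values are a description. The interaction changed with which P3 sub-clusters were taken as the counterpart of 3m sub-clusters 13 and 16.

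Summed over all barcodes, as in a bulk sample, 1 of the 4 genes was called, against 34.5% of 15407 genes. *Fezf2* stood at 8.27, 3.78 and 8.22 at 3m and at 1.99, 2.12 and 4.91 at P3, a change of 1.37 ± 0.43 (adjusted p = 0.0224 in edgeR) with overlapping libraries. It was lost without 3m replicate 1, 3m replicate 3, P3 replicate 1 or P3 replicate 2 (1.13 to 1.21, adjusted p from 0.0546 to 0.0939 in edgeR). *Lhx2* stood at 70.1, 48.6 and 67.1 at 3m and at 71.3, 97.0 and 110 at P3, a direction opposite to that in astroglia, and its change of -0.40 ± 0.21 was not called (adjusted p = 0.13 in edgeR). *Dbx2* and *Pou3f3* changed by 0.31 ± 0.15 and 0.27 ± 0.11 (adjusted p = 0.101 and 0.0709 in edgeR). In such a sum fewer cells of a type and less RNA per cell cannot be told apart. The oligodendrocyte markers together stood at 12215 to 23358 CPM at 3m and at 4.44 to 5.93 at P3.

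Shares of astroglial cells with a UMI were compared after each cell was thinned to 2000 UMIs, which left 906 of 1118 cells at 3m and 7761 of 8874 at P3. *Dbx2* was detected in 36.2% ± 1.63 of 3m cells and 16.7% ± 1.87 of P3 cells (SD, n = 3), *Pou3f3* in 38.8% ± 2.68 and 30.7% ± 2.77, *Lhx2* in 28.7% ± 5.67 and 22.7% ± 4.17, and *Fezf2* in 4.42% ± 1.99 and 1.06% ± 0.734. At this depth the libraries of *Dbx2*, *Pou3f3* and *Fezf2* did not overlap between ages, with an exact two-sided permutation p of 0.1, the smallest that 3 against 3 allows, and those of *Lhx2* did (p = 0.3, exact permutation). Adjusted over the 4 tests made, the values were 0.133 and 0.300, so this design could not reach 0.05. How common separate libraries are among all genes at this depth was not counted, so the separation is a description and not a property of these genes. Of the 4 genes only *Dbx2* kept separate libraries at all thinned depths: at 1000 UMIs the exact permutation p was 0.2 for *Fezf2* and *Lhx2* and 0.3 for *Pou3f3*, and at 3000 UMIs it was 0.2 for *Fezf2* and 0.1 for *Lhx2* and *Pou3f3*. Without thinning, the shares were 55.8% and 43.9% for *Dbx2* and turned lower at 3m for *Pou3f3* (57.0% and 68.8%) and *Lhx2* (48.0% and 55.2%), in cells that are shallower at 3m. In endothelial cells, thinned shares of each gene were at most 0.497% in the P3 cluster END_7 and 0.667% in the 3m cluster END_17, but in the shallow P3 clusters they reached 14.1% (END_13) and 28.3% (END_12), both for *Pou3f3*.

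Detection in the same cell was also counted. Among thinned cells of 3m sub-clusters 7 and 14, 12.3% (83 of 675) held UMIs of both *Lhx2* and *Dbx2*. In P3 sub-clusters 0, 1, 2 and 9 it was 4.07% (171 of 4205), in sub-clusters 3, 5, 10 and 15 it was 0.305% (6 of 1964) and in sub-cluster 11 it was 1.01% (3 of 297). No cell held UMIs of all 4 genes at this depth, and 21.8% of cells in sub-clusters 7 and 14 and 43.4% in sub-clusters 0, 1, 2 and 9 held none of them. In sub-cluster 10, 11.4% of thinned cells (37 of 325) held a *Fezf2* UMI, against 0.296% of sub-cluster 0 (5 of 1692) and 4.87% of 3m sub-cluster 7 (24 of 493).

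The deposited pseudotime score orders 5879 binned cells from dividing P3 cells to 3m astrocytes along the main lineage of the study. In P3 bins 2 to 6, 7 to 10 and 11 to 14, *Lhx2* stood at 93.9 ± 15.9, 84.0 ± 12.8 and 105 ± 16.5, *Dbx2* at 88.8 ± 12.9, 83.0 ± 6.08 and 121 ± 6.79, and *Pou3f3* at 152 ± 18.3, 144 ± 18.4 and 183 ± 23.3 (SD, n = 3 libraries). *Fezf2* stayed at 0.666 to 1.17 over the same bins, from 43 UMIs. In the 3m bins 16 to 19, *Lhx2* stood at 246 ± 16.4, *Dbx2* at 242 ± 4.92, *Pou3f3* at 274 ± 19.3 and *Fezf2* at 29.9 ± 9.76. The pooled P3 level of *Lhx2* was lowest in bin 10 (59.7) and that of *Pou3f3* in bins 2 and 10 (100.4 and 103), against 118 and 212 in bin 14. Both ages were present in numbers only in bin 15, with 9 P3 and 22 3m cells (a further 4 3m cells lay in bins 11, 13 and 14), so late bins and age cannot be told apart along this axis. The ordering was made from the same cells, and these levels are a description.

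**Figure D5:**
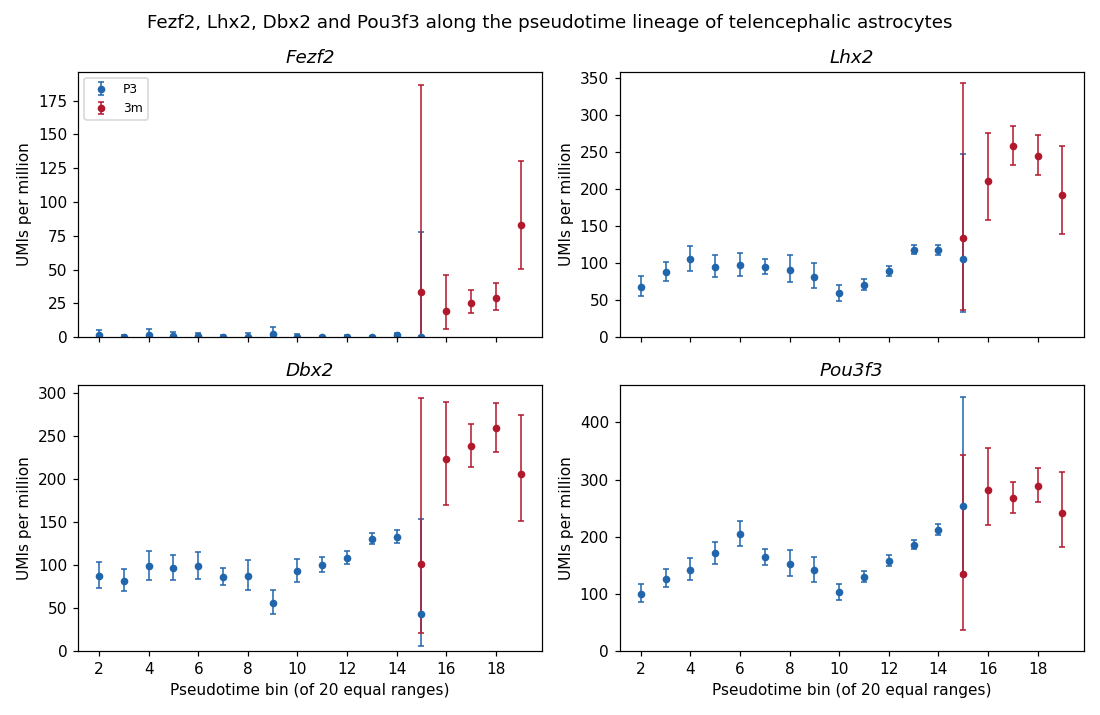
Level of *Fezf2*, *Lhx2*, *Dbx2* and *Pou3f3* (CPM, linear axes from 0) against the deposited pseudotime bin, with pooled cells of P3 in blue and of 3m in red, exact 95% Poisson intervals, and bins of at least 9 cells. *Lhx2* lies between 59.7 and 118 in P3 bins 2 to 14 and between 193 and 258 in 3m bins 16 to 19.

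The genes whose levels over the 24 clusters were most like each of the 4 were found by Pearson correlation of log2(CPM + 1), as a description over points that share libraries. *Lhx2* was closest to *Emx2* (r = 0.93), a telencephalic homeobox gene, and then to *Nr2e1*, *Dok5*, *Pdpn* and *Rgs20* (r = 0.91 to 0.92). For *Pou3f3* these were *Asrgl1* (r = 0.96), *Sybu*, *Hepacam*, *Nlgn1* and *Cntfr*, for *Dbx2* they were *Btbd17* (r = 0.91), *Gabra2*, *Bcan*, *Gpc5* and *Fndc5*, and for *Fezf2* they were *Prdm16os* (r = 0.82), *Shisa2*, *Dapp1*, *Celsr1* and *Hgf*. Several of these, such as *Hepacam*, *Bcan* and *Gpc5*, are known astroglial genes. Among the 17 astroglial sub-clusters *Lhx2* and *Dbx2* ran in opposite directions (r = -0.56) and *Lhx2* ran with *Fezf2* (r = 0.79), whereas over the 24 clusters the r of *Lhx2* and *Dbx2* was 0.52.

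Related factors and cofactors were set beside the 4 genes, by list. Calls were common among all genes (32.1% in astroglia and 29.6% in the telencephalic sums, in either direction), and the counts below are descriptions that show nothing particular to a list. Of 16 listed paralogues only *Pou3f1*, *Pou3f2* and *Pou3f4* passed the filter on low counts in astroglia, and *Pou3f1* fell (log2 change -1.59), whereas *Pou3f2*, which often acts alongside *Pou3f3*, changed by -0.01 ± 0.17. *Pou3f1* also fell in the telencephalic sub-clusters (-2.44). Of 10 LIM-domain cofactors, the partners and competitors of LIM-homeodomain proteins, 9 were tested, and 1 rose (*Lmo1*, 1.07 ± 0.23) and none fell, a share of calls below that of all genes (32.1%). In the telencephalic sub-clusters *Lmo1* rose by 1.80 ± 0.21 and *Ssbp3*, a partner of LIM-binding proteins, by 1.74 ± 0.24, while *Ldb2* and *Lmo3* fell (-3.40 and -1.51). The median of this list was -0.26 in astroglia and -0.36 in the telencephalic sums, beside -0.04 and -0.03 over all genes tested.

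Of 16 telencephalic factors, 14 were tested in astroglia, none rose and 4 fell, where 15.8% of all genes were called higher and 16.3% lower (log2 changes of -2.32 for *Dlx1*, -1.81 for *Gsx2*, -1.41 for *Dlx2* and -1.01 for *Nr2f2*), with a list median of -0.39. *Dlx1*, *Dlx2* and *Gsx2* are genes of ventral telencephalic progenitors and interneurons. In the telencephalic sub-clusters 13 were tested. There *Pax6* rose by 1.13 ± 0.17 and *Dlx1*, *Dlx2* and *Nr2f2* fell, beside 15.4% of all genes called higher and 14.3% lower. *Emx2* was called in neither of these comparisons. Of 14 non-telencephalic markers only 6 were tested, and *Agt* rose by 2.36 ± 0.43 and *Otx2* fell (-2.10, list median 0.17), while in the telencephalic sub-clusters *Otx2* fell (-4.47) and *Agt* changed by -0.38 ± 0.19 and was not called.

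Among 17 glial factors, all tested, 3 rose and 3 fell, beside 15.8% of all genes higher and 16.3% lower. *Rorb* rose by 1.97 ± 0.20, *Rora*, its relative among the retinoid-related orphan receptors, by 1.33 ± 0.18 and *Glis3* by 1.04 ± 0.27, while *Olig2* (-3.19), *Olig1* (-2.46) and *Hes1*, a Notch effector (-1.59), fell, with a list median of -0.43. In the telencephalic sub-clusters *Prox1*, *Nfix* and *Npas3* fell as well (-2.55, -1.30 and -1.16). Of 11 projection neuron factors, many of which act with *Fezf2* in cortical neurons, 10 are in the count table and 6 were tested. *Tle4*, a corepressor of corticothalamic neurons, rose by 1.77 ± 0.16 and none fell (list median -0.63). Within the telencephalic sub-clusters *Tle4* rose as well, while *Cux2* and *Cux1* fell (-2.42 and -1.03). The called changes of listed genes, over both comparisons, had adjusted p from 1.08e-12 to 0.0286 in edgeR.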

How the data were processed

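The authors mapped single-cell reads to the mouse genome (mm10), counted UMIs with Cell Ranger and deposited 1 table of UMI counts for all 6 libraries without normalization. The submitters' processing notes also name Seurat 3.1.1. A second deposited table gave each kept cell (over 500 genes, under 10% mitochondrial UMIs) its cluster, its astroglial sub-cluster, a pseudotime score with no unit, which the authors computed with Slingshot, and the bin of that score. Doublets were not removed, and columns of no known sample numbered 0, so none was left out.

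Counts were summed per library and set of cells. Changes were tested with edgeR 4.0.16 (quasi-likelihood, TMM scaling, filterByExpr) in R 4.3.3 on all genes, with DESeq2 1.42.0 among the alternatives, after the scripts were tested on simulated data. Ratios and shares have 95% exact conditional or Wilson intervals, and floors are 3 UMIs. Fold changes are 3m over P3. The labels name no batch.

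The 4 genes, the lists and the alternatives were chosen with earlier results of these data known. From each list the genes named are up to 4 with the largest change among those called in astroglia, plus those called in the telencephalic sums. The study describes the libraries as independent preparations, each of several animals, and p-values measure the spread between such preparations. A listed gene is not reported here.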

Additional observations from a re-analysis of the deposited data

Results flagged for a closer look

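With the sub-clusters grouped after the study, the age change differed between telencephalic and non-telencephalic sums for 3 of the 4 genes, by a test of the interaction. Of all 10181 genes tested, 22.3% passed the same threshold. The difference, telencephalic minus non-telencephalic, was 7.73 log2 units for *Fezf2*, 3.78 for *Lhx2* and -2.93 for *Dbx2*. The *Fezf2* value rests on 2 UMIs in the 3m non-telencephalic sums and that of *Lhx2* on 47. In those sums *Dbx2* passed the low-count filter through its 3m level, so the size of its value is no measure of precision. The P3 non-telencephalic sums hold sub-clusters 3, 5, 10 and 15, in which *Lhx2* was at 251 and *Dbx2* at 6.38 CPM, and sub-clusters 4 and 12, in which they were at 166 and 65.6 CPM. Age and sub-cluster cannot be told apart there.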

How the results depend on the processing

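In astroglia the calls of *Fezf2* and *Dbx2* held under all 19 alternatives (2.43 to 4.54 and 1.08 to 1.48 log2 units) and *Pou3f3* stayed uncalled (0.51 to 0.80). *Lhx2* was called in 2 of 19, at 1.04 without P3 replicate 3 (0.67 to 1.04 without each library) and 1.14 without P3 sub-clusters 3, 5, 10 and 15. The latter cut was made on the levels of these genes, so its call is no evidence. In the telencephalic sums the calls of *Fezf2* and *Lhx2* held under all 15, and that of *Dbx2* was lost with no scaling beyond library totals (0.87), no filter (0.95), a stricter cell filter (0.87) and in 2 of the 6 fits that left out 1 library (0.98 without 3m replicate 3 and 0.99 without P3 replicate 1, range 0.98 to 1.17). In the non-telencephalic sums, leaving out 1 library gave -3.67 to -2.14 for *Fezf2*, and the stricter filter left *Lhx2* uncalled at -1.37. Sub-cluster 11 against 13 and 16 turned *Lhx2* to 0.88 and *Dbx2* to -0.46, and the interaction with sub-cluster 11 moved turned *Fezf2* to -1.51 and *Dbx2* to 1.56 and left *Lhx2* at 0.63. DESeq2 called the *Pou3f3* interaction (0.37). Over all barcodes the stricter filter (over 1000 genes, under 5% mitochondrial UMIs) gave 0.18 for *Fezf2*, a called fall of *Lhx2* (-1.38), and reversed *Dbx2* (-1.06) and *Pou3f3* (-0.36), and without 1 library *Fezf2* ran from 1.13 to 1.89. The causes were not tested.

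Counts of called genes moved by over 1.5 times when library sums were thinned to the smallest (2718 in astroglia, 2342 telencephalic, 401 non-telencephalic, 504 interaction), under the stricter filter (862 non-telencephalic, 782 interaction) and with sub-cluster 11 as the counterpart (1359 and 1267). Leave-one-out counts ran from 1664 to 2961 (non-telencephalic) and from 1350 to 2412 (interaction), lowest in both without 3m replicate 2. With no scaling beyond library totals the median change of all astroglial genes moved from -0.04 to -0.24, and 1753 genes were called higher and 2790 lower against 2140 and 2204. In the telencephalic sums the split was 1533 and 2294 against 1899 and 1758, and in the non-telencephalic 898 and 2135 against 1329 and 1274. The replicate block changed no call among the 4 genes (4420 genes called in astroglia). Deviations of same-numbered libraries correlated at 0.206, 0.0993 and 0.0390, and the numbers were not taken as pairs. In the non-telencephalic sums *Fezf2*, *Lhx2* or *Dbx2* failed the low-count filter in 8 fits, which gave no value. Without thinning, the shares reversed for *Lhx2* (-7.19 percentage points) and *Pou3f3* (-11.9). Of the 5 most alike genes, 0 recurred for any of the 4 over sub-clusters, and 3, 4, 1 and 2 recurred for *Fezf2*, *Lhx2*, *Dbx2* and *Pou3f3* with log2(CPM + 10). Low UMI counts of *Fezf2* (102 at 3m) limit its precision.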
